A study of Homo sapiens with 6 samples.

Results

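The genes described here are 45 genes of the absorptive brush border and of nutrient transport, measured in LS174T, a human line from a colon adenocarcinoma whose cells make mucin. They were chosen by symbol: each probe set that the platform annotation gives to 1 of the 45 genes was collected, and the brightest by mean log2 intensity over all 6 arrays stood for its gene. All 45 had at least 1 probe set (82 probe sets in all), among 19775 genes with a probe set of their own on the array. The genes fall into 13 of microvillus structure, 9 hydrolases, 12 transporters, 7 of lipid handling and 4 that mark mature colonocytes. RNA came from 3 cultures given CompE at 250 nM and from 3 cultures given the vehicle DMSO, each for 48 h, with 1 Affymetrix U133 array per culture. The labels do not spell out CompE, an abbreviation often used for Compound E. That molecule blocks gamma-secretase, whose cut releases the active intracellular domain of Notch. Both groups were grown in EMEM with serum, so the compound is set against its vehicle in a single tumour line. The labels name the 6 cultures as biological replicates.

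The brush border is the carpet of microvilli on the luminal face of absorptive intestinal cells. Villin, plastin, espin and EPS8 bundle and cap the actin core of each microvillus, ezrin and class I myosins tie the core to the membrane, and the protocadherins CDHR2 and CDHR5 link the tips through a complex that holds USH1C, ANKS4B and MYO7B. The membrane carries peptidases and disaccharidases that finish digestion, and carriers that take up sugars, amino acids, peptides and bile acids. Absorbed lipid is carried inside the cell by fatty acid binding proteins and exported on apolipoproteins with the help of MTTP. In the gut, Notch signalling favours absorptive over secretory fates, which is why this programme is of interest when gamma-secretase is inhibited.

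The arrays were alike in brightness, with median intensities between 36.9 and 38.6. Genes that report on Notch were measured as a check of the treatment: HES1, a repressor that Notch induces, fell by 1.49 on the log2 scale (SE 0.10, limma adjusted p = 0.00198), and ATOH1, which directs cells to secretory fates, rose by 2.61 (SE 0.13, adjusted p = 0.000892). OLFM4, a crypt gene, fell by 2.60 (adjusted p = 0.000253), and the mucin gene MUC2 rose by 1.05 (adjusted p = 0.00164). The line carried its epithelial label, with 8 of 8 colon epithelium markers above the level of the array's Bacillus control probe sets in both groups (that level, an intensity of 45.7, is the 95th percentile of 27 probe sets for transcripts that human RNA does not hold). Among goblet cell markers 5 of 6 tested rose and 0 fell in limma (5 at an unadjusted p under 0.05), and their summed intensity went from between 14060 and 14340 in DMSO to between 18260 and 19560 in CompE; its part in the results below was not tested. Of 6 fibroblast, 5 leukocyte and 5 endothelial markers measured, 3, 2 and 1 lay above the Bacillus level in both groups. Of the 5, 4 and 3 bright enough to be tested 0 passed in limma (0, 2 and 1 at an unadjusted p under 0.05). Their summed intensities were 275 to 394 in DMSO against 331 to 347 in CompE, 1669 to 1947 against 1277 to 1548, and 244.5 to 311 against 225 to 270.3. The leukocyte sum was mostly that of LYZ, a lysozyme gene that gut epithelium also expresses (1580.4 ± 141 in DMSO, 1271 ± 128 in CompE, not called). The markers above the Bacillus level in both groups were COL1A1, COL1A2 and DCN (fibroblast), CD79A and LYZ (leukocyte) and PECAM1 (endothelial). LUM and CD14 lay above it in DMSO only. At or below it in both groups were COL3A1 and PDGFRB, PTPRC and CD3E, and VWF, CDH5, KDR and ENG. No marker was listed at 0. The part of these cell types in the results was not tested. The ratio of 3' to 5' ACTB probe sets, a measure of RNA integrity, ran from 1.42 to 1.46 in DMSO and from 1.49 to 1.53 in CompE. The same ratio for GAPDH overlapped, from 0.958 to 0.979 in DMSO and from 0.918 to 0.970 in CompE. The part of RNA integrity in the results was not tested.

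The brush border genes did not move as a block. Of the 45, 32 were bright enough to be tested and 13 were not (mean log2 in the lowest 40% of probe sets). In limma 3 of the 32 rose, namely the peptidase gene MME, the efflux pump gene ABCB1 and the bundling protein gene ESPN, and 1 fell, the peptidase gene DPP4. The remaining 28 did not pass. Over all 14308 genes tested 4.56% rose and 2.57% fell (7.14% in either direction), so 4 of 32 (12.5%) is a share that rests on few genes and is read only as a count. The median log2 change of the 32 was -0.02, beside 0.02 over all genes tested, and 16 values were positive and 16 negative. The groups did not overlap for 10 of the 32 (31.2%), near the 32.2% of all genes tested. CompE was higher without overlap in 7 of the 32, beside 19.1% of all genes tested, and lower without overlap in 3 of the 32, beside 13.0%. Of all genes, 1021 passed with the 6 arrays. Leaving out DMSO replicate 1, 2 or 3 left 381, 292 or 300, and leaving out CompE replicate 1, 2 or 3 left 252, 429 or 519. DPP4, MME and ABCB1 passed in each of these 6 fits.

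**Figure D1:**
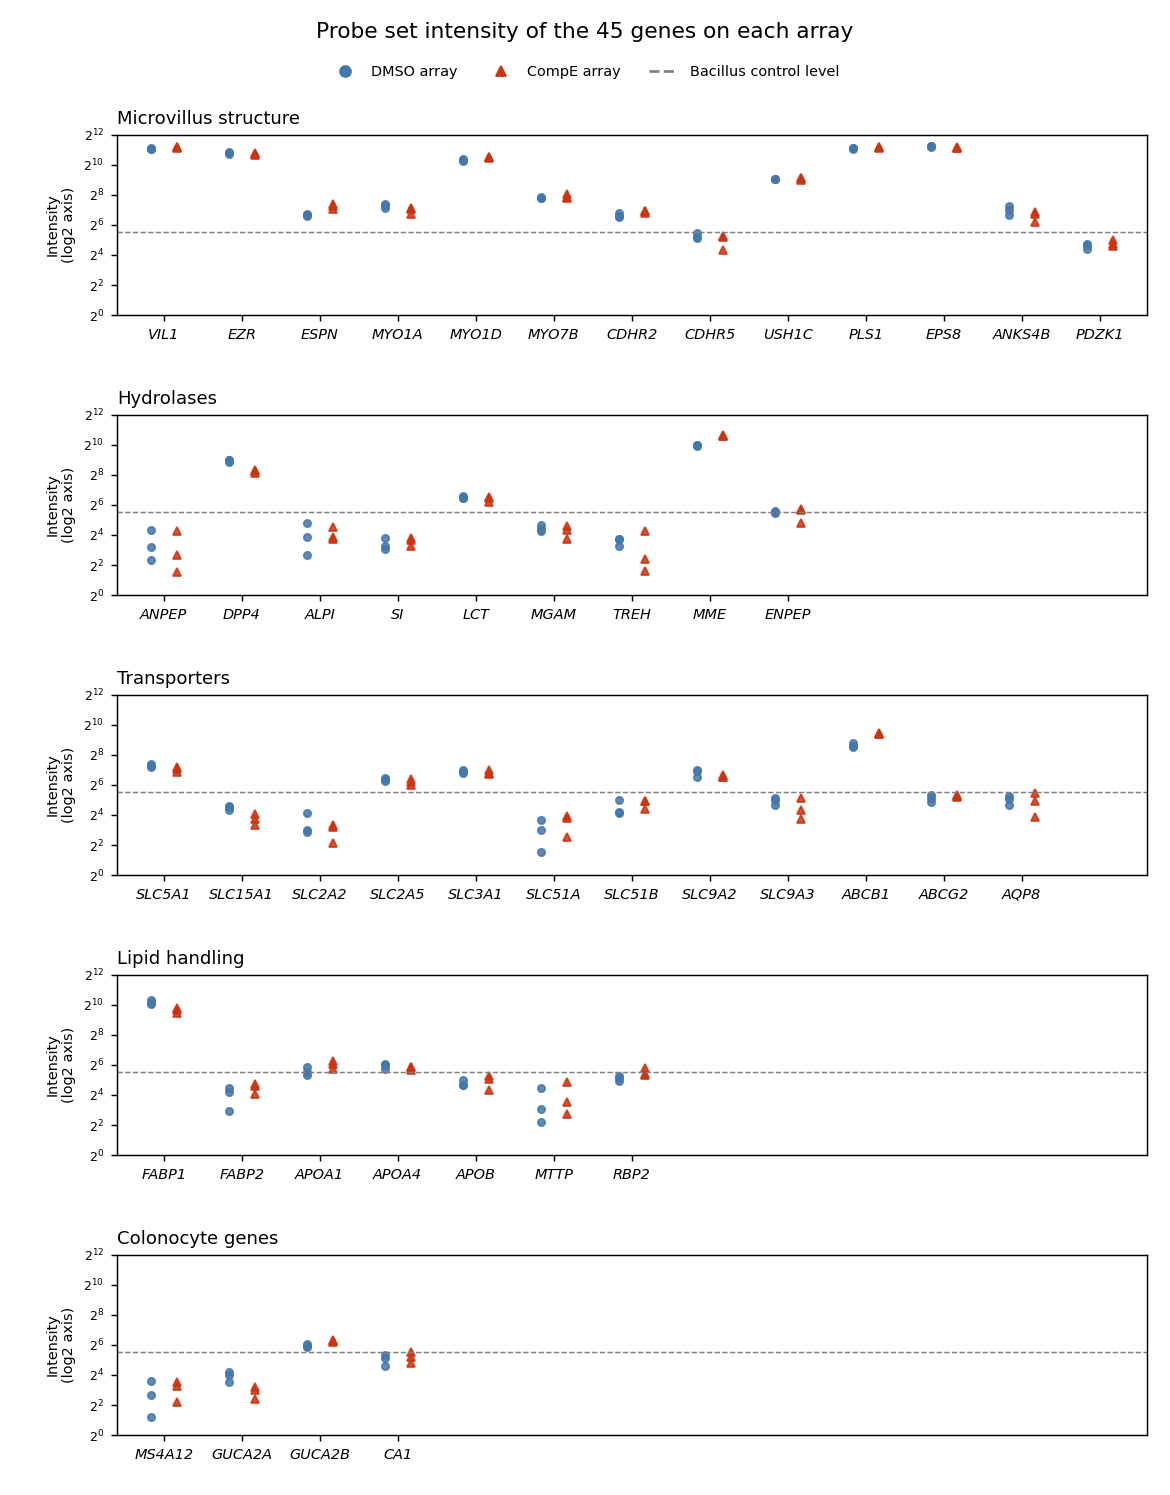
Intensity of the brightest probe set of each of the 45 genes, on a log2 axis, with 1 point per array (blue circles for 3 DMSO arrays, red triangles for 3 CompE arrays) and a dashed line at the Bacillus control level of 45.7. The structural genes lie mostly above the line, with 11 of 13 above it in both groups, beside 3 of 9 hydrolases, 5 of 12 transporters, 3 of 7 lipid genes and 1 of 4 colonocyte genes.

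The member that fell was DPP4, the brush border enzyme that clips dipeptides from the ends of peptides and inactivates incretin hormones. Its intensities were 511, 457 and 496 on the DMSO arrays and 301, 321 and 277 on the CompE arrays. All 3 CompE values lay below all 3 DMSO values. The fall was 1.63-fold (mean 488 ± 27.7 to 299.5 ± 21.7, SD, n = 3; log2 change -0.71 ± 0.08 SE, 95% interval -0.89 to -0.52, limma adjusted p = 0.00805). Its 2 other probe sets, tested probe set by probe set, gave -0.74 and -0.97, and both passed (adjusted p = 0.0127 and 0.0215). On the dimmest of the 3 the intensities were 212, 180.1 and 188 in DMSO and 106, 110.4 and 82.5 in CompE. With 1 array left out the change lay between -0.76 and -0.65, with adjusted p between 0.0223 and 0.0479.

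The neutral endopeptidase gene MME, which encodes neprilysin, a membrane metalloprotease that cuts peptide hormones, went the other way. It read 998, 1016 and 982 in DMSO and 1613, 1512 and 1552 in CompE, again with no overlap. The rise was 1.56-fold (mean 999 ± 16.7 to 1559 ± 51.2, n = 3; log2 change 0.64 ± 0.05 SE, 95% interval 0.52 to 0.76, limma adjusted p = 0.00282). Its second probe set gave 0.70, from 895, 819 and 863 to 1455, 1476 and 1269, and passed as well (adjusted p = 0.0136). A pair of membrane peptidases on the same list thus changed in opposite directions, each on all of its tested probe sets.

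The other hydrolases were low. LCT, the lactase gene, read 88.2, 96.2 and 86.7 in DMSO and 74.7, 93.2 and 86.5 in CompE, above the Bacillus level on every array, and its ranges overlapped. Its difference was -0.10 (95% interval -0.33 to 0.14, adjusted p = 0.595). ENPEP, the glutamyl aminopeptidase gene, lay at the Bacillus level, with 44.6, 45.3 and 49.0 in DMSO and 27.6, 52.8 and 50.04 in CompE, and its difference of -0.15 (adjusted p = 0.774) turned to 0.15 without CompE replicate 1. Each of the genes for aminopeptidase N (ANPEP), intestinal alkaline phosphatase (ALPI), sucrase-isomaltase (SI), maltase-glucoamylase (MGAM) and trehalase (TREH) was below the Bacillus level on all 6 arrays. The highest single value among these 5 was 27.5, for ALPI on a DMSO array, and SI ran from 8.31 to 14.2 in DMSO and from 9.51 to 13.9 in CompE. No probe set of these 5 genes was bright enough to be tested, so no change in them could be measured here.

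Among transporters, ABCB1 stood out as the member that rose. It encodes P-glycoprotein, the apical pump that returns drugs and xenobiotics to the lumen. The intensities were 367, 388 and 435 in DMSO and 689, 681 and 669 in CompE, a gap with no overlap. The rise was 1.72-fold (mean 397 ± 34.9 to 679.8 ± 10.1, n = 3; log2 change 0.78 ± 0.07 SE, 95% interval 0.60 to 0.96, limma adjusted p = 0.00553). Its dimmer probe set gave 0.73, from 116, 129 and 123 to 224, 192 and 194 (adjusted p = 0.0140). ABCG2, the other xenobiotic pump on the list, lay below the Bacillus level in both groups (28.8 to 40.1 in DMSO and 36.2 to 40.5 in CompE).

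No carrier of sugars, amino acids, peptides, bile acids or sodium among the members passed in the fit over genes. SLC5A1, the sodium-driven glucose carrier, read 171, 152 and 144 in DMSO and 116, 147 and 135 in CompE, and the ranges overlapped (log2 difference -0.23, 95% interval -0.51 to 0.04, adjusted p = 0.267). Its second probe set gave -0.36 with no overlap (93.8, 105 and 102 against 71.9, 81.2 and 82.2) and did not pass either (adjusted p = 0.0730 over probe sets). SLC2A5, the fructose carrier, differed between probe sets. The brightest gave -0.17 (75.9, 87.7 and 83.2 against 62.6, 82.3 and 74.7), while the next gave -0.50 (70.5, 76.7 and 87.2 against 57.7, 55.2 and 52.4) and passed at an adjusted p of 0.0476 when probe sets were tested. Beside that, 4.28% of all 26962 probe sets tested passed. SLC9A2, a sodium-proton exchanger, read 122, 125 and 93.3 in DMSO and 91.7, 90.2 and 101 in CompE (-0.26, adjusted p = 0.284). SLC3A1, which encodes the heavy subunit of the cystine carrier, read 118, 109.5 and 128 against 109, 125 and 108, a difference of -0.06 (95% interval -0.28 to 0.16).

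The remaining transporters were at or below the Bacillus level in both groups. These were the exchanger gene SLC9A3 (34.4, 24.8 and 31.96 in DMSO, 13.5, 20.5 and 35.1 in CompE) and the water channel gene AQP8 (33.8, 38.5 and 25.4 against 43.4, 14.4 and 29.8), both tested and neither called. SLC2A2, which encodes the basolateral glucose carrier, and SLC51A and SLC51B, the subunits of the bile acid exporter, were too dim to test. The peptide carrier gene SLC15A1 was too, with 23.9, 22.9 and 20.3 in DMSO and 13.01, 17.03 and 10.01 in CompE. Its groups did not overlap, but every value lay below the Bacillus level, and with no filter on dim probe sets its change had an adjusted p of 0.157.

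Of the 13 genes for the structural core of the microvillus, 11 lay above the Bacillus level in both groups, and 12 did not pass. VIL1, which encodes villin, read 2175, 2123 and 2145 in DMSO and 2187, 2264 and 2270.1 in CompE. The CompE values were all higher, but by only 0.06 on the log2 scale (95% interval -0.05 to 0.17, adjusted p = 0.471), whose upper end is 1.13-fold. PLS1, the plastin of microvilli, read 2200.3, 2223 and 2102 against 2258, 2212 and 2354 (0.06, interval -0.06 to 0.19). EPS8, which caps and bundles actin at the tip, read 2393, 2319 and 2393 against 2313, 2251 and 2189.7 (-0.07, interval -0.19 to 0.04). For EZR, which encodes ezrin, the values were 1852, 1742 and 1673 against 1682, 1729 and 1634 (-0.06, interval -0.21 to 0.08). USH1C, the scaffold of the tip-link complex, read 533, 526 and 523 against 549.9, 557 and 507 (0.03, interval -0.11 to 0.16). With arrays centred on their hybridisation controls, which lowers the median change of all genes from 0.02 to -0.12, the values of VIL1, PLS1 and USH1C fell below 0.

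ESPN, the actin bundling protein espin, was the structural gene that rose, and of the 4 calls its own ended most often under other settings. Its brightest probe set read 98.9, 94.6 and 104 in DMSO and 164, 153 and 131 in CompE, with no overlap (1.51-fold; log2 change 0.59 ± 0.09 SE, limma adjusted p = 0.0242). Its 2 other probe sets disagreed: 1 rose by 0.52 (33.4, 32.9 and 31.96 to 46.8, 46.6 and 48.0), and the other fell by 0.84 (36.9, 39.1 and 35.4 to 20.8, 21.6 and 19.9). Both were called, in opposite directions, but neither lay above the Bacillus level in both groups. The gene has a near-identical pseudogene copy, ESPNP, and 2 probe sets that the annotation shares between a member and another gene (1 for ESPN, 1 for ABCB1) were left out. The call ended without DMSO replicate 1, 2 or 3 (adjusted p = 0.0812, 0.0902 and 0.0723) and without CompE replicate 1 or 2 (0.0774 and 0.0783). It also ended with the mean of all its probe sets, where the change was 0.09 (adjusted p = 0.369), and with no filter on dim probe sets (0.59, adjusted p = 0.0667), so that 2 members rose in each of these fits.

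No myosin or tip-link gene among the members passed, and their intervals differed in width. MYO1D, a class I myosin, read 1199, 1244 and 1321 in DMSO and 1450.0, 1446 and 1382 in CompE, without overlap, and the difference of 0.19 (interval 0.04 to 0.33) had an adjusted p of 0.118. With a variance trend in limma it passed (adjusted p = 0.0162), but it passed in only 2 of 18 alternative settings. With 1 array left out MYO1D passed in 0 of 6 fits (0.140 to 0.283). MYO1A, the class I myosin of the enterocyte microvillus, differed by -0.29 (170.1, 137 and 157 against 107, 132 and 142; interval -0.62 to 0.04, adjusted p = 0.255). MYO7B, the tip-link motor, read 219, 227 and 224 against 261, 228 and 222 (0.08). CDHR2 read 97.4, 90.3 and 109.8 against 123, 123 and 109 (0.26, interval 0.03 to 0.49, adjusted p = 0.167). ANKS4B, the tip-link adaptor, varied more within groups (102, 149 and 129 against 117, 73.4 and 107), and its interval ran from -0.90 to 0.18. CDHR5 and the scaffold gene PDZK1 were below the Bacillus level on all 6 arrays.

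**Figure D2:**
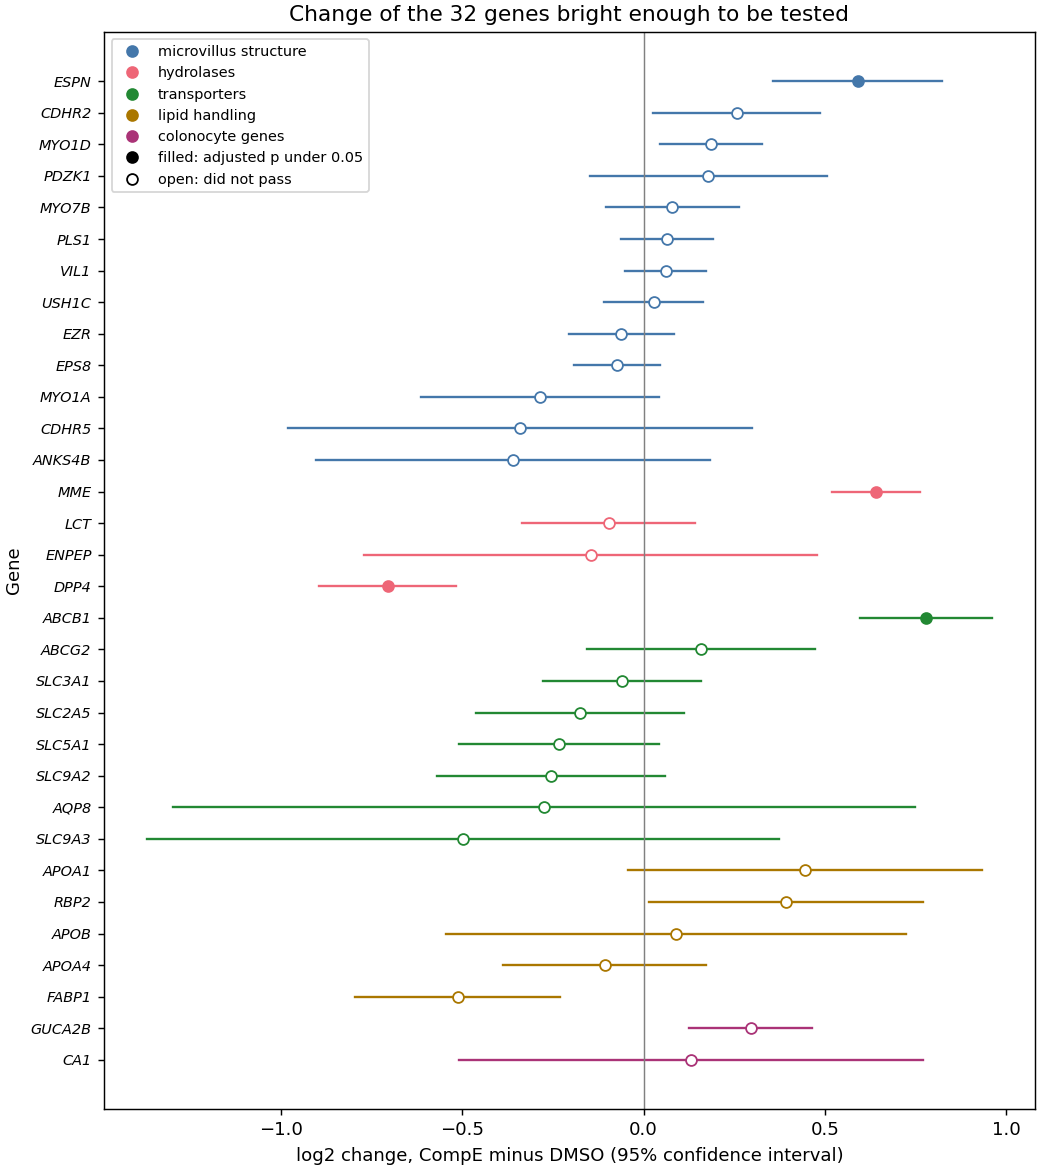
Log2 change (CompE minus DMSO) with its 95% confidence interval for the 32 genes bright enough to be tested, coloured by role, with filled points for adjusted p under 0.05. DPP4 lies to the left at -0.71, and ESPN, MME and ABCB1 lie to the right at 0.59, 0.64 and 0.78. The bright structural genes VIL1, PLS1, EPS8, EZR and USH1C sit close to 0 with short intervals. MYO1D, also bright, lies at 0.19 with an interval of 0.04 to 0.33, as an open point.

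In lipid handling, 0 of 5 genes tested passed in limma (2 at an unadjusted p under 0.05, FABP1 and RBP2). FABP1, the liver-type fatty acid binding protein, was the bright member. It read 1247, 1056 and 1086 in DMSO and 814, 879 and 687 in CompE, with all CompE values lower (mean 1129.7 ± 102 to 794 ± 97.7, n = 3). The log2 difference of -0.51 (SE 0.11, 95% interval -0.80 to -0.23) missed the threshold at an adjusted p of 0.0568. It passed under 7 of 17 alternative settings, among them quantile normalization (-0.53, adjusted p = 0.0415), and in 0 of the 6 fits with 1 array left out (0.0768 to 0.143). GUCA2B, described below, was the next outside the threshold, and ESPN the last inside it.

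The apolipoprotein genes were close to background. APOA4 read 62.7, 52.8 and 66.0 in DMSO and 59.1, 49.9 and 59.3 in CompE (-0.11, adjusted p = 0.617). APOA1 read 39.6, 59.1 and 46.6 against 78.1, 66.6 and 53.0 (0.45, adjusted p = 0.235), and its 2 dimmer probe sets gave -0.28 and -0.44. APOB lay at 25.4 to 32.3 in DMSO and 20.1 to 38.9 in CompE, below the Bacillus level. RBP2, the retinol binding protein of enterocytes, read 29.9, 38.2 and 34.3 against 41.2, 54.5 and 39.5 (0.39, adjusted p = 0.191), without overlap and with group means at or below that level. FABP2, the intestinal-type fatty acid binding protein, and MTTP, which loads lipid onto APOB, were too dim to test, at 7.77 to 22.1 and 4.65 to 22.4 in DMSO.

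Of the 4 colonocyte genes, GUCA2B, which encodes uroguanylin, a ligand of the guanylate cyclase GUCY2C, was the 1 above the Bacillus level. It read 61.9, 59.4 and 66.2 in DMSO and 73.1, 81.6 and 75.4 in CompE, without overlap (0.30 ± 0.07 SE, adjusted p = 0.0634), and did not pass. It passed under 3 of 18 alternative settings, among them the stricter filter on dim probe sets (adjusted p = 0.0245) and genes above the Bacillus level (0.0334). With 1 array left out it passed in 0 of 6 fits (0.101 to 0.169). The related guanylin gene GUCA2A was too dim to test, at 11.7, 18.6 and 15.97 against 9.29, 5.22 and 7.92, without overlap and all below that level. CA1, a carbonic anhydrase gene, read 24.1 to 40.5 in DMSO and 27.3 to 45.7 in CompE (0.13, adjusted p = 0.802). MS4A12, a membrane protein gene of colonocytes, did not exceed 11.9 on any array.

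Agreement between probe sets could be examined for the 14 genes with more than 1 tested probe set. Of 55 tested probe sets over all members, 6 rose and 5 fell. Over all 26962 probe sets tested 734 rose and 419 fell (4.28% in either direction). The member calls came from DPP4, ESPN, MME, ABCB1 and SLC2A5. Several probe sets of 1 gene measure the same gene again, so the member count is not read as an excess of calls. DPP4, MME and ABCB1 were the members with every tested probe set called, each gene in 1 direction. ESPN was the 1 member called in both. For VIL1, 4 probe sets gave 0.06, 0.14, 0.18 and -0.15, and for USH1C 3 gave 0.03, 0.08 and 0.02, with none called in limma.

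**Figure D3:**
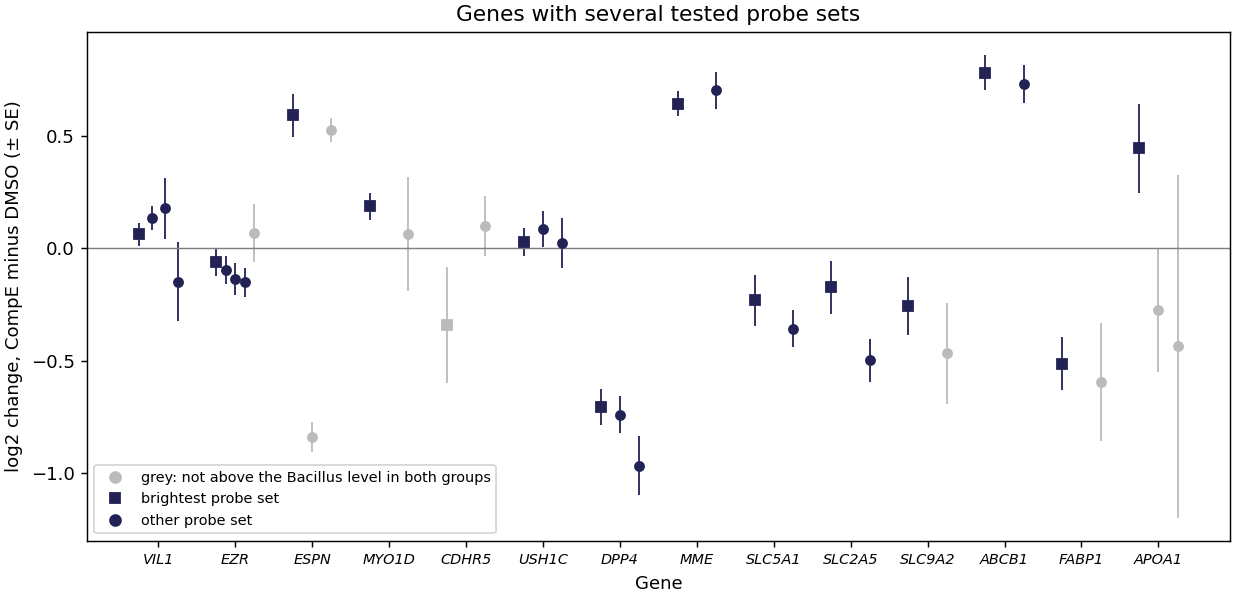
Log2 change (CompE minus DMSO) with its standard error for each tested probe set of the 14 genes that have several, with squares for the brightest probe set of a gene and grey for probe sets not above the Bacillus level in both groups. The 3 DPP4 probe sets (-0.71 to -0.97) and the pairs of MME and ABCB1 (0.64 to 0.78) cluster by gene, whereas ESPN spans from -0.84 to 0.59.

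Further genes of the same systems were taken from 6 lists of 109 genes in all, of which 76 were tested, 5 rose (6.58%) and 9 fell (11.8%), beside 4.56% and 2.57% of all genes tested. The counts of each list below are read against the same shares and rest on few genes. Each related gene is given by its brightest probe set, and any other probe sets it has are not shown. Of 16 other microvillus genes tested, 4 fell and 1 rose, with a median of -0.17. Those that fell were MSN, which encodes the ezrin relative moesin (391 ± 17.1 to 254 ± 10.8, log2 change -0.62, adjusted p = 0.00561), the villin-like gene VILL (86.8 ± 5.08 to 46.3 ± 4.603, -0.91, adjusted p = 0.00619), CALML4, a light chain of the tip-link myosin (1036 ± 10.1 to 787 ± 9.35, -0.40, adjusted p = 0.00841), and NHERF1, the PDZ scaffold of ezrin and of membrane carriers (996 ± 9.70 to 766 ± 25.1, -0.38, adjusted p = 0.0128). The CompE values of VILL (50.2, 47.5 and 41.3) lay near the Bacillus level of 45.7. STX3, an apical syntaxin gene named after its values were seen, rose by 0.34 (adjusted p = 0.0328). The call of NHERF1 ended without DMSO replicate 1, 2 or 3 or CompE replicate 1 (adjusted p = 0.0523, 0.0616, 0.0610 and 0.0631) and that of CALML4 without CompE replicate 1 (0.0512). That of STX3 ended whichever array was left out (0.0638 to 0.109).

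Of 20 other nutrient transporters tested, 1 rose and 1 fell, and both are neutral or imino acid carriers that belong to 1 family. SLC6A19, the main neutral amino acid carrier of the small intestine, rose 2.38-fold (59.2 ± 6.72 to 142 ± 27.7; log2 change 1.25 ± 0.16 SE, adjusted p = 0.0120). SLC6A20, the imino acid carrier, fell 1.92-fold (622 ± 32.7 to 324 ± 14.2; log2 change -0.94 ± 0.06 SE, adjusted p = 0.00224). The call of SLC6A19 ended without DMSO replicate 1 or 2 (adjusted p = 0.0503 and 0.0536). Of 6 other hydrolases tested 0 passed in limma (0 at an unadjusted p under 0.05), and the peptidase gene NAALADL1 was closest (0.19, adjusted p = 0.211).

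Of 18 other lipid genes tested, 1 rose and 2 fell. FABP6, the bile acid binding protein of the ileum, rose 1.37-fold (254 ± 9.46 to 349 ± 32.1, adjusted p = 0.0308). DGAT1, which makes triglyceride, fell 1.22-fold (922 ± 39.2 to 755 ± 21.4, adjusted p = 0.0374). MOGAT3, a monoacylglycerol acyltransferase gene, was called lower at -0.90 (adjusted p = 0.0149) with both groups below the Bacillus level, so no fold is given. The call of DGAT1 ended whichever array was left out (0.0784 to 0.129), that of FABP6 in each case but without CompE replicate 3 (0.0591 to 0.105), and that of MOGAT3 without DMSO replicate 1 or 2 or CompE replicate 1 or 2 (0.0520 to 0.0656). Of 9 other mature colonocyte genes tested, CA2, a carbonic anhydrase gene (-0.60, adjusted p = 0.0301), and GUCY2C, the receptor of guanylin and uroguanylin (-0.48, adjusted p = 0.0331), fell, while TMEM171 rose (0.38, adjusted p = 0.0495). These 3 calls ended whichever array was left out (0.0503 to 0.102, 0.0591 to 0.101 and 0.0768 to 0.148). Among 8 transcription factors of enterocytes tested, CDX2, the homeobox factor of intestinal identity, rose 1.35-fold (539 ± 14.1 to 727 ± 15.9, adjusted p = 0.00873). The other 7 did not pass.

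**Figure D4:**
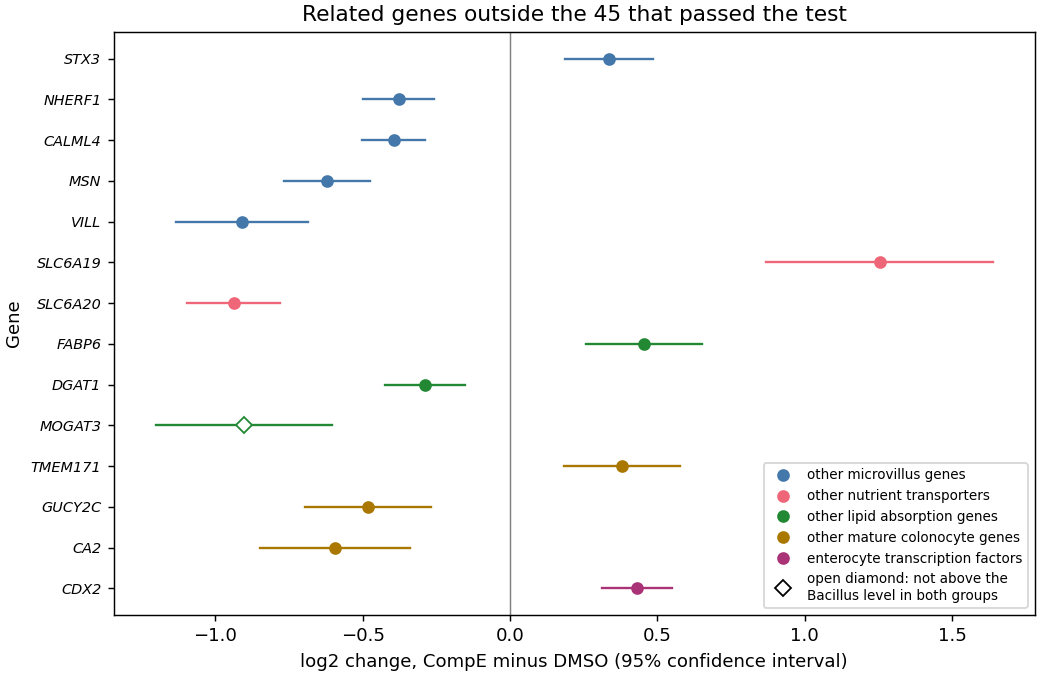
Log2 change (CompE minus DMSO) with its 95% confidence interval for the 14 related genes outside the 45 that passed the limma threshold, coloured by list, with an open diamond for the gene below the Bacillus level in both groups. SLC6A19 and SLC6A20 lie at the opposite ends, at 1.25 and -0.94, and 4 of the 5 microvillus genes lie below 0.

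Promoter sequence was read for the members whose calls held on every tested probe set, and for a bright and a dim member of the classical enterocyte programme for contrast. RefSeq promoter windows (GRCh38.p14) were found for 36 of the 45 genes, and the 250 bases before each start site were searched on both strands for AAAGTCC (HNF4), TTTATG (CDX), TGGGAA (RBPJ, the DNA binding partner of Notch), CACGNG (HES repressors) and CAGCTG (the E-box type bound by ATOH1). Capitals mark matches in either orientation, and each line runs 5′ to 3′ on the strand of the gene. The windows lie at chr2:162074216-162074465 (minus strand, DPP4) and chr3:155079422-155079671 (plus strand, the most upstream of the 4 MME windows found). Those of ABCB1 lie at chr7:87600885-87601134 and chr7:87713296-87713545 (minus strand, both windows found). Those of FABP1 and SI lie at chr2:88128063-88128312 and chr3:165078497-165078746 (both minus strand). The MME gene begins further upstream, at 155024202, and the SI gene extends to 165090232. Windows at those outermost ends were not among those searched.
DPP4: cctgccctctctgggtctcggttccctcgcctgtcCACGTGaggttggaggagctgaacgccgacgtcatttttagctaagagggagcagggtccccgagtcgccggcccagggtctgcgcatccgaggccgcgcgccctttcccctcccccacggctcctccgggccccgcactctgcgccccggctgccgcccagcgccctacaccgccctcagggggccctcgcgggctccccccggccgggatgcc
MME: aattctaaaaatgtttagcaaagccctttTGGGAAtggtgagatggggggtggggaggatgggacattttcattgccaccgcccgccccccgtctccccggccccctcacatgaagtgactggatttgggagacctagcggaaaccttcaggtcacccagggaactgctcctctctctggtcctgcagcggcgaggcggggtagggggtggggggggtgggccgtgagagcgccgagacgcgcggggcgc
ABCB1 downstream start: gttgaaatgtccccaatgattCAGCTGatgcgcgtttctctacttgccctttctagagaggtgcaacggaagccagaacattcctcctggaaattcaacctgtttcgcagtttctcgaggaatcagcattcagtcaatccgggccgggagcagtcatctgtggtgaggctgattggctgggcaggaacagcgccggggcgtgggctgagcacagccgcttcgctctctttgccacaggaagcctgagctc
ABCB1 upstream start: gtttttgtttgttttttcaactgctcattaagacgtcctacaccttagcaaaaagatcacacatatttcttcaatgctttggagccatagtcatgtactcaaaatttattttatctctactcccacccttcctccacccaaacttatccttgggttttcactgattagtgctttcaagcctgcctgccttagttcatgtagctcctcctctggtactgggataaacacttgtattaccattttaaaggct
FABP1: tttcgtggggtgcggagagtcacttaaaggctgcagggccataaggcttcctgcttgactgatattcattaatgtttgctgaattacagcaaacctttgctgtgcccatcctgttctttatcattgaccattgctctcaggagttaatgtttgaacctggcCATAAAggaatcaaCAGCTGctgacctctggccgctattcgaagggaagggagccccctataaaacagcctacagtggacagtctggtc
SI: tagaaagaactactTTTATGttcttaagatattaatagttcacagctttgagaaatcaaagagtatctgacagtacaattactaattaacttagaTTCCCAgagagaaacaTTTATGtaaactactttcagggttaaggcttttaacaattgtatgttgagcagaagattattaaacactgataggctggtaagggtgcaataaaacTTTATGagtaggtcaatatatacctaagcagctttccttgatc

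The DPP4 window is 73.6% G and C and held a single match, CACGTG, which fits the HES pattern. The MME window shown is 63.2% G and C and held 1 RBPJ match. Of the other 3 MME windows, which partly overlap, 1 held 0 matches, 1 held 1 HES match, and the most downstream held 1 RBPJ match and 2 HES matches. The downstream ABCB1 window held 1 CAGCTG and the upstream one held 0 of the 5 motifs. FABP1, bright and lower in CompE without passing, held a CDX match and a CAGCTG, and SI, at background on all arrays, held 3 CDX matches and 1 RBPJ match. Such short motifs are common: over all 35116 windows the RBPJ letters occurred in 20.8%, the HES letters in 26.7%, CAGCTG in 14.0%, TTTATG in 9.64% and AAAGTCC in 3.20%. Among the 53 windows of the members, several of which belong to the same gene, the shares were 24.5%, 15.1%, 20.8%, 9.43% and 18.9% in the same order. The AAAGTCC letters were found at 10 member genes. A match is a description of the letters and not evidence that a factor binds there.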

How the data were processed

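RNA of 6 LS174T cultures was amplified from the 3' end, biotin-labelled and hybridised, 1 array per culture, and per the series design text the authors used dChip to bring the arrays to a common scale. What they deposited is a linear intensity for each probe set. The sources used here do not say how dChip treated mismatch probes. Here values under a floor of 1 were raised to it before the log2 step, and nothing was normalized again. Left out were the 62 control probe sets, the dimmest 40% by mean log2 (below 4.61) and those without exactly 1 gene in the platform annotation, which is old; 41043 of 41097 symbols were taken through the Entrez identifier (GRCh38.p14 gene table). The brightest probe set stood for its gene, giving 14308 genes. Groups came from the sample titles. CompE was compared with DMSO by limma 3.58.1 in R 4.3.3 (lmFit, eBayes, two-sided, no covariate), with Benjamini-Hochberg adjustment over all genes and a threshold of 0.05; the script was tested on simulated data. "Rose" and "fell" are used only of genes past it. Intensities of different probe sets cannot be compared as expression levels. With bulk RNA, fewer cells of a type and less RNA per cell cannot be told apart. The number of arrays limits the precision (median SE 0.11 log2 units for the members tested).

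Every member is named; related genes were named as the members called of each list, at most 4 with the smallest p, or the closest where none was called. Members, lists and tests were chosen with earlier results of these data known. Alternatives covered filters, scaling, a pseudocount of 16, the choice of probe set, the 10896 probe sets with the lowest SD within groups (a count the design text gives), the replicate number as a block and each array left out. A motif that was planned for the promoter search is not reported here.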

Additional observations from a re-analysis of the deposited data

How the results depend on the processing

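Under 17 settings planned and 1 chosen after seeing the data (only genes above the Bacillus level), the changes of the 32 members kept direction and side of the threshold in 499 of 534 values. Of the 32, 28 did not pass in the main fit, so most of these values belong to genes that started outside the threshold. ESPN passed in 10 of its 18 settings. MME and ABCB1 passed in all but the fit with the replicate block, and DPP4 in all but that fit among those it entered. With the replicate number as a block, 102 genes passed and 0 members rose or fell (adjusted p of MME 0.0536, ABCB1 0.0598, DPP4 0.0758 and ESPN 0.111). Deviations from the group mean had correlations of 0.03, -0.10 and -0.02 between arrays with the same number. Between arrays with different numbers they ran from -0.103 to 0.122. With 3 arrays per group these values cannot settle whether the numbers mark a pairing, and the labels do not say. The block also spends residual degrees of freedom.

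The count of genes that passed was 363 with no filter, 1751 with the stricter filter, 1555 for genes above the Bacillus level, 2226 with a variance trend, 2930 for the 10896 least variable probe sets, and 1892 with hybridisation control centring; with 1 array left out it lay between 252 and 519. Selecting probe sets for low variance makes those p-values too small by construction. Rises made up 64.0% of calls, and 18.0% with hybridisation control centring, which moved the median of all genes to -0.12. In the least variable probe sets, where 2930 of all 6869 genes passed, 5 of 10 members rose and 0 fell, and DPP4 was not among them. The count of members that rose was 4 with the stricter filter and over genes above the Bacillus level, where GUCA2B joined, and with a variance trend, where MYO1D joined. FABP1 joined DPP4, so that 2 fell, with the stricter filter, quantile normalization, median centring, hybridisation control centring, a pseudocount, a variance trend or genes above the Bacillus level; 3 had a probe set that fell when probe sets were tested (DPP4, ESPN and SLC2A5). With 1 array left out, 2 to 3 members rose and 1 fell.

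Values that did not pass turned sign as follows. With hybridisation control centring VIL1 stood at -0.0819, MYO7B at -0.0631, USH1C at -0.115, PLS1 at -0.078, APOB at -0.0534 and CA1 at -0.0112. With the mean of all probe sets APOA1 stood at -0.0891. With 1 array left out, ENPEP ranged from -0.314 to 0.153 (positive without CompE replicate 1), AQP8 from -0.629 to 0.165 (positive without CompE replicate 2), APOB from -0.112 to 0.366 (negative without CompE replicate 1) and CA1 from -0.0828 to 0.323 (negative without DMSO replicate 1 or CompE replicate 1). Genes near the Bacillus level have wide intervals, and no change in the 13 members too dim to test could be measured.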
